A study of Mus musculus with 6 samples.

Results

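HOX genes encode homeodomain transcription factors that sit in 4 chromosomal clusters, and they were examined here in single cells of the mouse fracture callus. Members were genes whose symbol has the form Hoxa, Hoxb, Hoxc or Hoxd followed by a number. They were 39 of the 55450 genes listed in the replicate 1 libraries, and all 39 are also among the 52081 gene IDs that the 6 libraries share. Calluses came from mid-femur fractures, stabilised by a needle in the medullary cavity, of male mice aged 12 weeks, and were taken at 14 days post-fracture (dpf). The 3 CON libraries carry the genotype label wt, and the study describes these mice as Piezo1 f/f without Cre. The 3 CKO libraries carry the label Col2CreERT; Piezo3-/-, while the series names Piezo1 as the deleted gene, an ion channel opened by mechanical force. Tamoxifen (75 mg/kg) was given to both groups on 5 consecutive days. The Col2a1 promoter drives the inducible Cre, so recombination is limited to cells that have used this cartilage promoter, and endothelial and immune cells of CKO mice are not its target.

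The paralog number of a HOX gene follows its order along the chromosome. Low-numbered (3′) genes act in the hindbrain and neck and high-numbered (5′) genes act in the lumbosacral trunk and in the outgrowing limb. Adult fibroblasts and skeletal stem cells retain a HOX code that records the body site from which they came, and neural crest derived jaw bone lacks one. Genes of the Hoxa and Hoxd clusters pattern the limb segments, with paralog group 11 linked to the forearm and shank and group 13 to hand and foot. In blood, HOX genes of the Hoxa and Hoxb clusters are known from stem and progenitor cells.

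Values by library are given below in the order CON1, CON2, CON3 and then CKO1, CKO2, CKO3. The 6 libraries held 46944 cell barcodes, with 57626530 to 103784364 unique molecular identifiers (UMIs) a library, and 41652 cells were kept. Of 34 clusters, 13 were stromal-like (19200 cells, named by collagens and Dcn), 2 mural-like (1670 cells, Rgs5 or Myh11), 6 endothelial-like (5887 cells, Cdh5 or Flt1), 12 immune-like (14651 cells, Ptprc) and 1 erythroid-like (244 cells). Each name rests on at least 3 markers of its class. Of the stromal-like cells, 5993 lay in sub-clusters with few UMIs or without a name, and they were left out in an added repeat. Clustering did not use HOX genes, so that they did not define these classes. Levels are given as CPM, the UMIs of a gene for each 1000000 UMIs of all genes in the cells of a class. Piezo1 over all cells was at 62.3, 56.4 and 59.4 in CON and 95.5, 48.2 and 45.4 in CKO (CPM), so CKO1 lay above and CKO2 and CKO3 below all CON libraries. In chondrocyte-like cells it was at 65.4, 42.9 and 48.9 in CON and 129, 43.1 and 46.9 in CKO, and the groups overlapped. These 3′ tags do not show whether an exon was deleted, so CKO stands here for the label. Library CKO3 carried Xist, the RNA of the inactive X chromosome, at 578 CPM and no UMI of the Y-linked gene Ddx3y, whereas the other 5 libraries had Ddx3y and almost no Xist, although the mice were described as male. Counts of members past the threshold are given with and without CKO3, except for endothelial-like against immune-like cells. Most other values include it. Col2a1, the main cartilage collagen, was at 25511, 10077 and 2502 in CON and 20019, 158 and 19093 in CKO (CPM) over all cells, so CKO2 was nearly without cartilage transcripts. Pairs of libraries shared 4 to 36 barcodes.

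Promoter sequences are shown for 4 members that differ in where they were expressed, because the differences between cell classes below followed the gene's cluster and its place in it. Hoxa9 and Hoxc4 were higher in stromal-like than in endothelial-like cells and Hoxb8 and Hoxd8 were lower. Hoxc4 passed the filter on low counts only in stromal-like cells, so its direction followed from the filter. Each is the 250 bases before the annotated start, 5′ to 3′, from RefSeq (GRCm38.p6), which held promoters of 22 of the 39 members. They lie at chr6:52227371-52227620 on the minus strand for Hoxa9 and on the plus strand at chr15:103034145-103034394 for Hoxc4, chr11:96281655-96281904 for Hoxb8 and chr2:74704365-74704614 for Hoxd8. Capitals mark TGATNNAT, a letter pattern of joint HOX and PBX binding, searched on both strands.
Hoxa9: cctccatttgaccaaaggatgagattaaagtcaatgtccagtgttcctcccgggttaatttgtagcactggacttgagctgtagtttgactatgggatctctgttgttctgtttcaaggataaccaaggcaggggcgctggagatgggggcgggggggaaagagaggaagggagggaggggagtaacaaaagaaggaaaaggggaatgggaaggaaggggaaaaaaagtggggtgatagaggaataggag
Hoxc4: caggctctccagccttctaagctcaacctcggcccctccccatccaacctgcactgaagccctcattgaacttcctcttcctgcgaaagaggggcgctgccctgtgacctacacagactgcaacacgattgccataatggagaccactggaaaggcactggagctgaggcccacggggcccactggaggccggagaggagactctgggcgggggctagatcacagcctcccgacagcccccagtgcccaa
Hoxb8: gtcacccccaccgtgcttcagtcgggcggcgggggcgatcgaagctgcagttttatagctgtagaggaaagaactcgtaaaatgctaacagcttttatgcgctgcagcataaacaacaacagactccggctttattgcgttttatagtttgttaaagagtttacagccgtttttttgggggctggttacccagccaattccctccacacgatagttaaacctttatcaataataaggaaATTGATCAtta
Hoxd8: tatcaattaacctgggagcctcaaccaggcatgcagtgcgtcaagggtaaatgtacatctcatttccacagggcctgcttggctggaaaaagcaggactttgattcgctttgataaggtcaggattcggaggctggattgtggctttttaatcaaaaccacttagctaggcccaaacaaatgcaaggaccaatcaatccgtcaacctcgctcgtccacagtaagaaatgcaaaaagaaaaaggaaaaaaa
Of these 4 windows the pattern was found only in that of Hoxb8, on the minus strand. It was in 4 of 24 HOX promoter windows (16.7%) and in 7.68% of all 32851 windows of the same length. The median number of CG pairs was 12.5 per HOX window, from 2 to 35, and 6.0 over all windows. Such matches describe the letters and are no evidence of binding.

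HOX transcripts were abundant in stromal-like, mural-like and endothelial-like cells and scarce in immune-like cells. Summed over the 39 genes they made up 339.6 ± 23.9 CPM in stromal-like, 463 ± 67.5 in mural-like, 444 ± 39.3 in endothelial-like and 38.7 ± 10.3 in immune-like cells (mean ± SD, n = 6 libraries, as for all values over libraries below). In stromal-like cells the sum was 314, 360.4 and 313 in CON and 327, 359 and 363 in CKO, and in immune-like cells it was 44.5, 24.4 and 27.4 in CON and 49.3, 44.8 and 42.1 in CKO. The lowest stromal-like library lay above the highest immune-like one, and the stromal-like, mural-like and endothelial-like ranges did not all separate. A UMI counts 1 molecule whatever its length, although molecules of different genes can be captured unequally. With each cell thinned to 2000 UMIs, 48.7% of stromal-like, 58.8% of mural-like, 57.6% of endothelial-like and 7.19% of immune-like cells had at least 1 HOX UMI. Cells below that depth were left out, namely 5280, 203, 639 and 3493 cells. Unthinned, at median depths of 9424, 6530.0, 7008 and 4606 UMIs, the shares were 73%, 84.1%, 85.9% and 18.3%.

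Endothelial-like cells differed from stromal-like and mural-like cells in which cluster their HOX transcripts came from. The Hoxc cluster gave 54.9 ± 4.49% of the HOX UMIs of stromal-like cells and 43.4 ± 2.33% of those of mural-like cells, but 2.37 ± 1.19% in endothelial-like cells. The Hoxb cluster gave 15 ± 8.67%, 22.3 ± 7.04% and 50.2 ± 3.27% in the same order. The Hoxd cluster contributed 13.7 ± 3.56% in endothelial-like cells and 2.93 ± 1.08% in stromal-like cells. The Hoxa cluster contributed similar shares, from 27.2 ± 3.79% in stromal-like to 33.7 ± 4.63% in endothelial-like cells. Paralog groups 9 to 13 made up 49.3 ± 4.65% of the HOX UMIs of stromal-like cells, 38.4 ± 2.71% in mural-like, 11.7 ± 0.931% in endothelial-like and 25 ± 3.58% in immune-like cells. In stromal-like cells this share was 54.8, 52.8 and 50.1 in CON and 50.5, 42.3 and 45.5 in CKO, and in every library it exceeded that of the endothelial-like cells. These shares describe the members and were not tested.

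**Figure D1:**
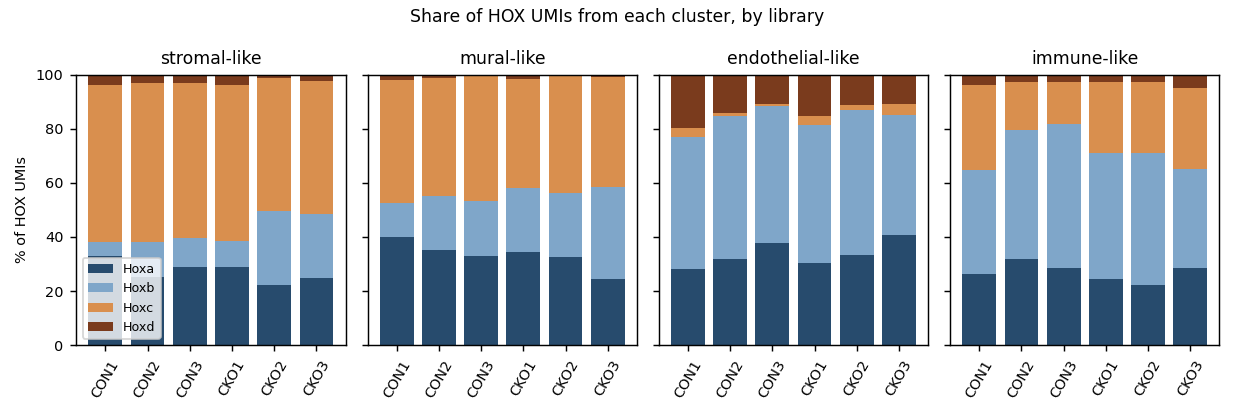
Each bar is 1 library and shows, on a linear axis from 0 to 100%, the share of HOX UMIs from the Hoxa, Hoxb, Hoxc and Hoxd clusters in 4 cell classes. Hoxc fills 49.1 to 58.8% of the stromal-like bars and 1.0 to 3.97% of the endothelial-like bars.

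Stromal-like cells were led by 4 neighbours of the Hoxc cluster. Hoxc10, which takes part in patterning of the lumbar cord and hindlimb, had the highest mean over libraries of the members there, at 61.7, 81.3 and 60.7 CPM in CON and 59.5, 49 and 62.6 in CKO, although Hoxc9 and Hoxb2 were above it in CKO2. It lies on chromosome 15 at chr15:102966796-102971893 (GRCm38, plus strand, ENSMUSG00000022484). Hoxc9, which specifies thoracic motor neurons, was at 42.4, 36.4 and 31.5 in CON and 40.1, 51.5 and 42.3 in CKO (CPM). All 6 libraries were above 30, and CKO2 was the highest. Hoxc8, a thoracic patterning gene, was at 33.7, 47.8 and 32.8 in CON and 38.2, 32.8 and 37 in CKO, and Hoxc6, its 3′ neighbour and a gene of the brachial and upper thoracic level, was at 28.3, 32.8 and 33.8 in CON and 32.9, 28.6 and 28.8 in CKO. The CON and CKO values of both genes overlapped. In the Hoxa cluster, Hoxa9, known from lumbosacral patterning and blood progenitors, stood at 28.1, 24.1 and 25.1 in CON and 28.1, 20.1 and 24.7 in CKO (CPM), and Hoxa10, a group 10 gene of the thigh segment and lumbar spine, at 27.9, 27 and 23.5 in CON and 23.5, 18.8 and 22.7 in CKO. The highest CKO value of Hoxa10 lay just under the lowest CON value. Hoxa7 was at 21.3, 13.8 and 16.3 in CON and 17.5, 21 and 21.6 in CKO and Hoxa5, a patterning gene of the neck and upper thorax, at 14.5, 15.7 and 12.6 in CON and 15, 10.1 and 12.5 in CKO. The CON and CKO values of both overlapped. Hoxb2, a hindbrain gene of paralog group 2, varied most among these 9 genes, at 4.94, 15.5 and 16.9 CPM in CON and 9.64, 61.9 and 49 in CKO. CKO2 and CKO3 stood above the other 4 libraries. The other 30 members were below 10 CPM on average in these cells. Hoxc11 was at 6.12 ± 2.39, Hoxc4 at 5.86 ± 1.24 and Hoxc5 at 2.72 ± 0.545 CPM.

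**Figure D2:**
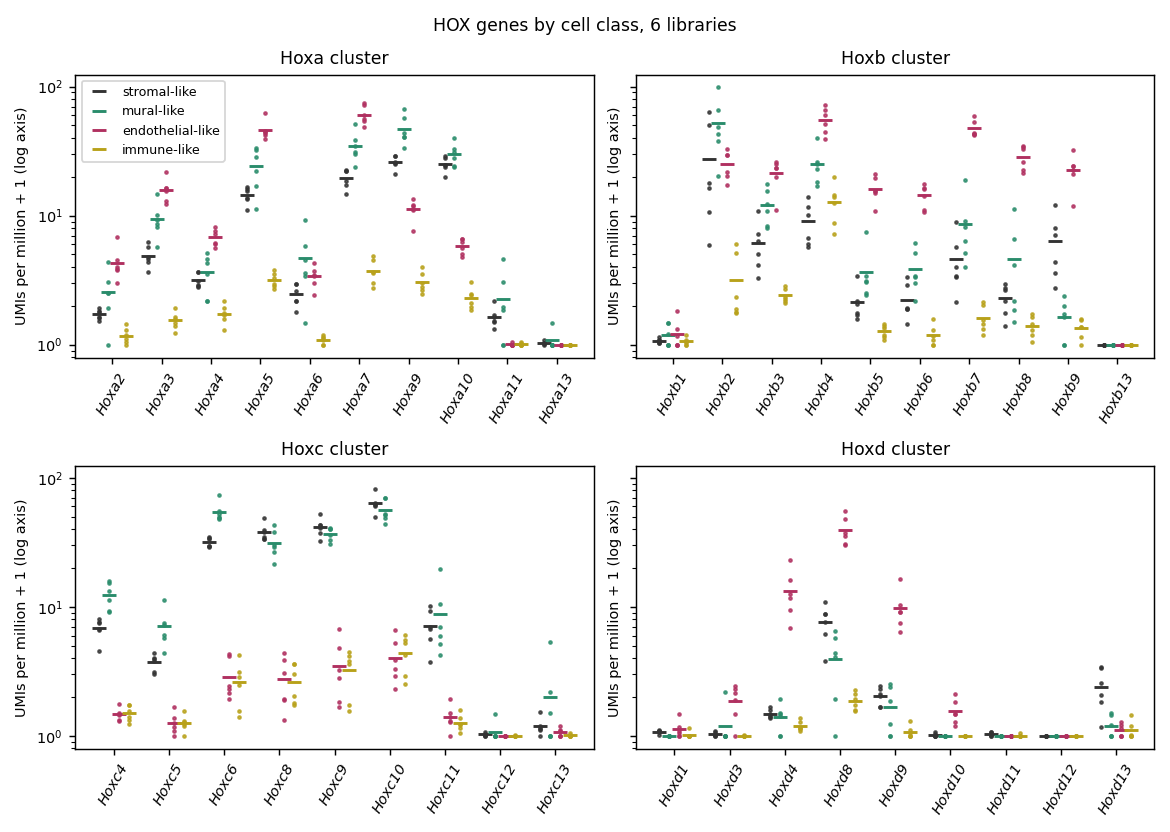
Points are CPM plus 1 in each of 6 libraries, on a log axis, for HOX genes in cluster order and 4 cell classes, and the short lines are means. Hoxc6 to Hoxc10 are high in stromal-like and mural-like cells, and Hoxb3 to Hoxb9, Hoxd4, Hoxd8 and Hoxd9 have their highest means in endothelial-like cells.

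Against immune-like cells, 28 of the 29 HOX genes tested were higher in stromal-like cells and none was lower (edgeR quasi-likelihood test with the library as a block, Benjamini-Hochberg adjusted p under 0.05). Of all 19686 genes tested, 69.4% passed, 36.6% were higher and 32.8% lower, and the members' median log2 difference was 3.57 beside 0.05 over all genes. The clusters come from other genes of the same cells, so these tests describe how far the classes lie apart, and the class comparisons share libraries. Log2 differences are after scaling by the trimmed mean of M values (TMM) and need not equal the ratio of the levels. The log2 difference was 4.30 ± 0.26 (SE, adjusted p = 8.88e-07) for Hoxc10 and 4.46 ± 0.37 (SE, adjusted p = 5.37e-06) for Hoxc6. Hoxb4 was the member that did not pass, at -0.56 ± 0.27 (SE, adjusted p = 0.095). Without CKO3, 28 members were higher and Hoxb4 passed as lower, at -0.81 ± 0.22 (SE, adjusted p = 0.0101). Of the 29, 16 also passed the filter on low counts in the immune-like libraries alone, and 15 of these were higher. The other 13 were tested because of their counts in stromal-like cells, so their direction followed from the filter.

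Endothelial-like cells had a different set of HOX genes, centred on paralog groups 3 to 9 of the Hoxa, Hoxb and Hoxd clusters. Hoxa7 had the highest mean, at 53.3, 47.3 and 58.9 CPM in CON and 55.1, 73 and 70.5 in CKO, and Hoxa5 was at 38, 43.8 and 61.7 in CON and 44.2, 41.1 and 42.5 in CKO. Hoxa3, a gene of the pharyngeal arches that is also known from wound angiogenesis, was at 15.2, 15.4 and 20.6 in CON and 11.9, 14.6 and 11.3 in CKO. All 3 were above the stromal-like level of the same library in 6 of 6 libraries. Hoxb4, a group 4 gene known for expanding blood stem cells, was at 64.5, 43.5 and 49.96 in CON and 58.9, 71.5 and 38.5 in CKO (CPM) (chr11:96318267-96321638, GRCm38, plus strand, ENSMUSG00000038692). Hoxb7 was at 41.6, 42.1 and 42.8 in CON and 58, 52.2 and 41.4 in CKO and Hoxb8 at 25.1, 31.6 and 33.9 in CON and 20.4, 33.1 and 21.7 in CKO. All 3 were again above the stromal-like level in 6 of 6 libraries, and the highest stromal-like Hoxb7 value was 7.94. Hoxb2 was at 16.1, 28.6 and 31.5 in CON and 20.9, 19.2 and 28.3 in CKO, Hoxb9 at 21.5, 19.9 and 23.1 in CON and 23.3, 31.2 and 10.9 in CKO and Hoxb3 at 24.8, 19 and 22.4 in CON and 22.3, 24.3 and 10.1 in CKO. Hoxb2 overlapped its stromal-like range, while Hoxb3 and Hoxb9 were above the stromal-like level in 6 of 6 libraries. Hoxb5, which takes part in endothelial specification, was at 19.9, 14.5 and 14.4 in CON and 18.5, 13.9 and 9.83 in CKO and Hoxb6 at 16.6, 15.1 and 15.3 in CON and 13.3, 9.99 and 9.64 in CKO. In the Hoxd cluster, Hoxd8, known from lymphatic and blood vessels, was at 54.2, 36.4 and 29.9 in CON and 47, 34.5 and 29 in CKO and Hoxd4 at 22.2, 10.8 and 8.46 in CON and 15.2, 11.5 and 5.92 in CKO. Hoxd4 and Hoxd3 share exons on the same strand in the GENCODE annotation, so their counts are uncertain. Same-strand exons of other genes also overlap Hoxa2 and Hoxd10 near their 3′ ends. Overlaps outside the 3′ end concern Hoxa3, Hoxa9, Hoxc5, Hoxc10 and Hoxd11. Hoxa9 was at 10.3, 6.55 and 11 in CON and 9.98, 11.1 and 12.5 in CKO, below every stromal-like value. The Hoxc genes were between 0 and 3.05 CPM on average here. As a share of the stromal-like level, the 7 Hoxc genes compared were at 4.81% (Hoxc8), 4.94% (Hoxc10), 6.05% (Hoxc9), 6.32% (Hoxc6), 6.88% (Hoxc11), 9.08% (Hoxc4) and 10.4% (Hoxc5). Of 8 transcripts typical of stromal-like cells, which droplets can take up as free RNA, 7 were at 3.77 to 5.95% and Sparc was at 33.4%. The part of free RNA in the Hoxc values was not tested. Against immune-like cells, 21 of 25 members tested were higher and none was lower, beside 65.2% of all genes that passed, 31% higher and 34.2% lower. The log2 difference was 5.74 ± 0.25 (SE, adjusted p = 3.69e-08) for Hoxb7, 5.76 ± 0.33 (SE, adjusted p = 1.87e-07) for Hoxb8 and 1.97 ± 0.13 (SE, adjusted p = 5.11e-07) for Hoxb4. The 4 that did not pass were Hoxc6, Hoxc8, Hoxc9 and Hoxc10, with log2 differences of 0.10, -0.44, -0.24 and -0.48. Of the 25, 15 passed the filter on low counts in each class alone, and 11 of these were higher. Another 9 passed it only in endothelial-like cells, so for them a higher level there followed from the filter. Hoxb8 was low in immune-like cells, so this may hold for its difference too. Scaling by library totals alone, an alternative chosen after seeing the data, left the 21 higher calls and moved the median of all genes from -0.05 to 0.26 and its calls to 7017 higher and 3762 lower, against 5080 and 5617.

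Compared directly within libraries, 11 of 31 members tested were higher in stromal-like and 17 were higher in endothelial-like cells, and the direction differed between the clusters. Over all genes 58.7% passed, 33.2% higher and 25.5% lower in stromal-like cells, and the median log2 difference was -1.33 for the members and 0.09 for all genes. In each class alone 24 of the 31 passed the filter, of which 6 were higher and 15 lower in stromal-like cells. Another 5 (Hoxc4, Hoxc5, Hoxc11, Hoxa11 and Hoxd13) passed it only in stromal-like cells, so for them a higher level there followed from the filter. All 7 Hoxc genes tested were higher in stromal-like cells, from 3.57 ± 0.39 (SE, adjusted p = 4.43e-05) for Hoxc5 to 5.03 ± 0.35 (SE, adjusted p = 2.95e-06) for Hoxc8. Among them the direction of Hoxc4, Hoxc5 and Hoxc11 followed from the filter. Hoxc6 was at 4.46, Hoxc9 at 4.70 and Hoxc10 at 4.81 on the same log2 scale. In the Hoxb cluster 7 of 8 tested were lower in stromal-like cells and none was higher. The log2 difference was -1.71 ± 0.35 for Hoxb3, -2.47 ± 0.24 for Hoxb4, -3.47 ± 0.36 for Hoxb5, -3.19 ± 0.38 for Hoxb6, -3.54 ± 0.35 for Hoxb7, -4.15 ± 0.28 for Hoxb8 (adjusted p = 2.61e-06) and -1.82 ± 0.41 for Hoxb9. Hoxb2 did not pass, at 0.03 ± 0.45 (SE, adjusted p = 0.957). The Hoxa cluster changed direction along its length. Hoxa2 (-1.83), Hoxa3 (-1.59), Hoxa4 (-1.05), Hoxa5 (-1.40) and Hoxa7 (-1.33 ± 0.09 SE, adjusted p = 1.36e-06) were lower in stromal-like cells. Hoxa9 (1.65 ± 0.13 SE, adjusted p = 4.13e-06), Hoxa10 (2.69) and Hoxa11 were higher, and Hoxa6 (-0.47) did not pass. Hoxa11 rested on 159 UMIs in stromal-like and 1 in endothelial-like cells, a ratio of rates of 31.6 (95% exact counting interval 5.59 to 1256). In the Hoxd cluster 5 of 6 tested were lower in stromal-like cells and 1 was higher. Hoxd3, Hoxd4, Hoxd8, Hoxd9 and Hoxd10 were lower, among them Hoxd4 at -4.20, Hoxd8 at -2.23 ± 0.18 (SE, adjusted p = 6.78e-06) and Hoxd9 at -2.68. Counts of Hoxd3, Hoxd4 and Hoxd10 are uncertain, because same-strand exons of other genes overlap them near their 3′ ends. Hoxd10 also had few UMIs and was uneven between endothelial-like clusters, as given below. Hoxd13, a gene of digits and urogenital tract, was higher in stromal-like cells at 3.78 ± 0.43 (SE, adjusted p = 5.01e-05), with a mean of 1.4 CPM. It was the only higher Hoxd member and was low, so these values do not set a direction for the 5′ end of the cluster. Without CKO3, 28 members passed. With library totals alone, 11 were higher and 19 lower, while the median of all genes moved to -0.27 and their calls to 4330 higher and 7864 lower, against 6262 and 4817 with TMM.

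**Figure D3:**
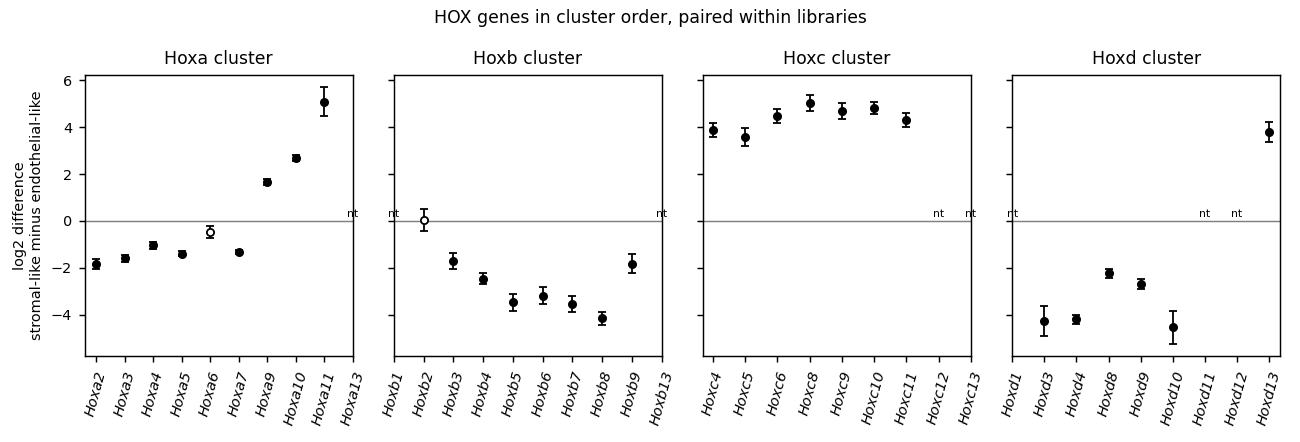
The y axis is the log2 difference, stromal-like minus endothelial-like, with its SE (edgeR, library as a block), for HOX genes in cluster order. Filled points passed the adjusted p threshold of 0.05, open points did not, and nt marks genes not tested. Hoxc genes lie above 0, Hoxb3 to Hoxb9 below 0, and Hoxa genes with calls cross 0 between Hoxa7 (-1.33) and Hoxa9 (1.65).

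Mural-like cells, the pericytes and smooth muscle of vessels, drew on the same clusters as stromal-like cells. Hoxc10 was at 50.5, 51.9 and 69.3 CPM in CON and 43, 47.5 and 69 in CKO, and Hoxc6 at 48.5, 54 and 72.7 in CON and 47.8, 51.6 and 47.1 in CKO. Hoxa9 was at 43, 39.7 and 55.6 in CON and 32.3, 66.1 and 39.6 in CKO. Hoxc6 and Hoxa9 were above the stromal-like level in 6 of 6 libraries, and Hoxc10 in 2 of 6. Hoxb2 was at 19.2, 47.4 and 65.2 in CON and 41.8, 37.2 and 97.4 in CKO and Hoxb4 at 17.2, 16 and 24.2 in CON and 25.1, 39.2 and 21.9 in CKO (CPM). Mean levels of the other named members were 35.8 ± 4.2 for Hoxc9, 33.8 ± 9.57 for Hoxa7, 30.5 ± 7.97 for Hoxc8, 28.9 ± 6.06 for Hoxa10 and 23.1 ± 8.88 for Hoxa5. Hoxc4 was at 8.08, 12.4 and 14.9 in CON and 8.36, 14.4 and 10.3 in CKO and Hoxb3 at 7.07, 7.26 and 11.3 in CON and 16.7, 14.4 and 9.79 in CKO. Hoxb4 was above its stromal-like level in 6 of 6 libraries and Hoxb2 in 5 of 6. CKO1 held 42 mural-like cells, the fewest of the 6. Against stromal-like cells, 11 of 29 members were higher in mural-like cells and 6 lower, beside 39.7% of all genes that passed, 16.1% higher and 23.5% lower. The median log2 difference was 0.58 for the members and -0.08 for all genes. Of the 17 members that passed the filter in each class alone, 10 were higher and 3 (Hoxc8, Hoxc9 and Hoxc10) lower. Another 11 passed it only in stromal-like cells, so for them a lower level in mural-like cells followed from the filter. Higher were, among others, Hoxb4 (1.29 ± 0.19 SE, adjusted p = 1.17e-04), Hoxb3 (0.88), Hoxb7 (0.75), Hoxa7 (0.58), Hoxa9 (0.51) and Hoxc6 (0.46). Hoxb9 (-3.16 ± 0.45 SE, adjusted p = 1.03e-04), Hoxd13, Hoxd8 (-1.46), Hoxc8 (-0.63), Hoxc9 (-0.48) and Hoxc10 (-0.51) were lower. Among these, Hoxb9, Hoxd13 and Hoxd8 did not pass the filter in each class alone. Hoxb2 was at 1.05 ± 0.39 (SE, adjusted p = 0.0741). Hoxd13 had 3 UMIs in mural-like and 365 in stromal-like cells, where its rate was 6.64 times as high (95% exact counting interval 2.25 to 32.3). Scaling mattered here. With library totals alone 16 members were higher and 3 lower, the median of all genes was 0.25, and their calls were 5636 higher and 2710 lower, against 2830 and 4126 with TMM. Hoxc8, Hoxc9 and Hoxc10 no longer passed, at -0.30, -0.15 and -0.18. The count also rested in part on single libraries. It was 10 without CON3, 14 without CKO3 and 9 without both, against 17 with all 6.

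In immune-like cells Hoxb4 was the 1 member at or above 10 CPM. It was at 13.4, 7.83 and 11.6 CPM in CON and 18.9, 13 and 6.14 in CKO, and its mean was 11.8 ± 4.52 beside 8.04 ± 3.39 in stromal-like cells. It was above the stromal-like level in 5 of 6 libraries, and the ranges overlapped. Over the named immune groups its mean ran from 7.5 in neutrophil-like to 14.7 in osteoclast-like cells, with 11.6 in macrophage-like and 9.81 in lymphocyte-like cells. An unnamed group of 500 cells was higher as a share of the stromal-like level. Hoxb4 was there at 444% (204 to 990% in 4 libraries), against 208.5% in osteoclast-like cells. The second highest member was Hoxc10, at 5.03, 1.93 and 1.54 CPM in CON and 4.28, 3.24 and 4.52 in CKO. Droplets also hold free RNA. In immune-like cells, 8 transcripts typical of stromal-like cells were at 4.25 to 6.43% of their stromal-like level, while the 28 members compared had a median of 10.4% and Hoxb4 169%. The Hoxc genes among them ran from 4.22% (Hoxc11) to 9.2% (Hoxc5), and Hoxd4 was at 41.8%. In endothelial-like cells the 28 members had a median of 299% of their stromal-like level. Free RNA from that class is not tracked by the 8 transcripts. In neutrophil-like cells, 6.18% of cells thinned to 2000 UMIs had a HOX UMI, beside 7.19% of all immune-like cells, which include them, and the 28 members had a median of 11.8% of their stromal-like level beside 5.85% for the 8 transcripts. The part of free RNA in these values was not tested. Progenitor-like cells, led by Elane, Prtn3 and Mpo, were present with 10 or more cells in 4 libraries (506 cells). Hoxa7 was at 11, 11, 13.9 and 15.5 CPM in CON2, CON3, CKO2 and CKO3, and Hoxa9 at 8.41, 10.1, 11.2 and 17.1. The highest mean of Hoxa9 in the other named immune groups was 1.97, in neutrophil-like cells. This contrast was picked after its values were seen and was not tested. The 8 stromal transcripts had a median of 12.6% of their stromal-like level in these cells. They differed widely between the 4 libraries, with Col1a1 from 0.871 to 58.4% and Dcn from 0.66 to 42.6%.

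Within the stroma the Hoxc and Hoxa genes were present in every named cell group, and a few members differed between groups. The sum of HOX genes ranged from 290.0 ± 55.5 CPM in a group led by Chil1, Lcn2 and Mmp3 to 479 ± 95.5 in tendon-like cells. That group held 3 markers of hypertrophic chondrocytes but is called here by its leading genes, and at resolution 1.2 a cluster led by the same 3 genes was named chondrocyte-like. The other chondrocyte-like cells had 332 ± 38.4, osteoblast-like 306 ± 38.9, periosteal-like 398 ± 49.95 and marrow stromal-like 459.5 ± 38.8. The marrow stromal-like name rests on Lepr, Cxcl12, Kitl and Lpl, without Adipoq or Hp, and the group was led by Mmp9, Gdpd2 and Cxcl12. Hoxc10 was at 41.4 in osteoblast-like, 61.6 in chondrocyte-like, 87.7 in periosteal-like and 89.6 in tendon-like cells (means over libraries). Hoxa9 had its highest mean, 45.9 ± 6.13, in marrow stromal-like cells, where all 6 libraries lay above all 6 osteoblast-like values. Hoxb2 was highest in osteoblast-like cells, at 19.4, 29.6 and 67 CPM in CON and 41.1, 80.02 and 118 in CKO. In chondrocyte-like cells it was at 2.56, 13.9 and 28 in CON and 7.83, 46.1 and 31.9 in CKO. It was higher in osteoblast-like than chondrocyte-like cells in every library, and CKO2, where osteoblast-like cells made up 38.9% of stromal-like cells against 2.31 to 12% elsewhere, also had the highest chondrocyte-like value. Hoxb9 had its highest mean in tendon-like cells, at 12, 59.8 and 24.3 CPM in CON and 20.5, 0 and 51.5 in CKO. The values rest on 226 UMIs in 410 cells, and CKO2 had none, with 15 such cells. Hoxd8 was at 17.6 ± 4.45 in tendon-like and 5.06 ± 1.35 in chondrocyte-like cells. Hoxa5 was at 4.22 ± 2.73 and 14.8 ± 5.44 in the same groups. These contrasts between single groups were picked after their values were seen and were not tested.

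**Figure D4:**
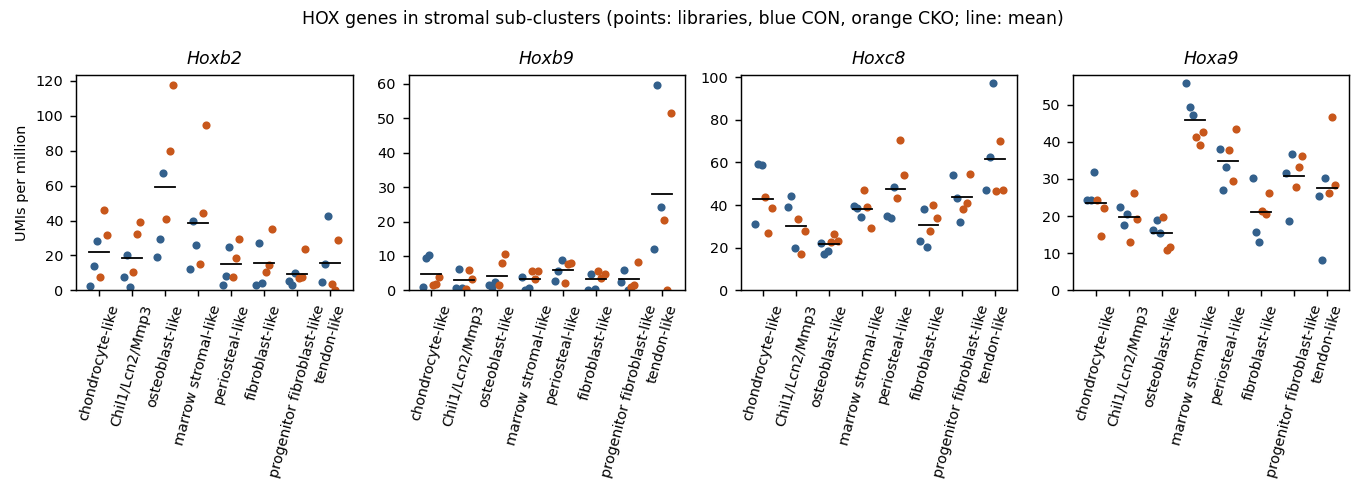
Points are CPM of Hoxb2, Hoxb9, Hoxc8 and Hoxa9 in each library (blue CON, orange CKO) for 8 stromal groups, each panel with its own linear axis from 0, and lines are means over 6 libraries. Hoxb2 has its highest mean in osteoblast-like cells (59.1), Hoxb9 in tendon-like cells (28) and Hoxa9 in marrow stromal-like cells (45.9).

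The comparison of chondrocyte-like (the group led by Chil1 included) with fibroblastic-like cells (periosteal, fibroblast, progenitor fibroblast and tendon groups) called 6 of 28 members, beside 38.5% of all genes, so the members' share was below the background. Hoxa5 (0.75 ± 0.19 SE, adjusted p = 0.0111), Hoxa7 (0.47 ± 0.12 SE, adjusted p = 0.0111) and Hoxc9 (0.35 ± 0.11 SE, adjusted p = 0.0264) were higher in chondrocyte-like cells, as were 19.3% of all genes. Hoxc5 (-0.67), Hoxd8 (-1.0 ± 0.15 SE, adjusted p = 5.96e-04) and Hoxd9 (-0.94) were lower, as were 19.2% of all genes. The median log2 difference was -0.07 for the members and 0.04 for all genes. The count was 3 without CKO3, 3 without CON2, 5 without the group led by Chil1 and 12 when cells were clustered without integration across libraries. With library totals alone 0 members were higher and 7 lower, and Hoxa5, Hoxa7 and Hoxc9 were at 0.54, 0.25 and 0.13 without passing. The median of all genes was then -0.17, and their calls were 1841 higher and 5008 lower, against 3163 and 3151.

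Among the 6 endothelial-like clusters, the 1 led by Ccl21a, Mmrn1 and Cldn5 stood apart in its Hoxd share. Ccl21a and Mmrn1 are known from lymphatic vessels. The cluster held 174 cells, and CON2, CON3 and CKO3 had 10 or more of them. Hoxd8 was at 44.1, 40.9 and 65.1 CPM in those libraries, Hoxd9 at 59.7, 38.1 and 43.4 and Hoxd10 at 23.4, 10.9 and 7.24. In the largest endothelial-like cluster the means were 36.8, 6.37 and 0.0712. With so few cells, the values of the cluster led by Ccl21a rest on few UMIs, fewest for Hoxd10 in CKO3. The Hoxd cluster gave 36.8 ± 5.17% of its HOX UMIs (n = 3) and 9.87 to 15.7% on average in the other 5 clusters. Hoxb9 had no UMI in the cluster. It was picked after its values were seen, so no test is given, and CKO3 is 1 of its 3 libraries.

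No HOX gene passed the threshold between CKO and CON libraries in any of the 5 classes tested. The numbers tested were 29 in stromal-like, 27 in chondrocyte-like, 17 in mural-like, 24 in endothelial-like and 16 in immune-like cells (edgeR quasi-likelihood test, adjusted over all genes). No gene at all passed in these 5 comparisons, 0% of 11137 to 18278 genes tested, and DESeq2 called no HOX gene either. In a simulation of the stromal-like comparison, the fit called 0% of genes with a true log2 difference of 1, 44% at 2 and 80.00% at 3. At an unadjusted p under 0.05, 3 members were found in stromal-like, 1 in chondrocyte-like, 1 in mural-like, 1 in endothelial-like and 2 in immune-like cells, where 1.5%, 1.94%, 4.11%, 5.56% and 2.03% of all genes did.

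In stromal-like cells the 3 members with an unadjusted p under 0.05 were neighbours of the Hoxb cluster. Hoxb4 was at 4.98, 5.76 and 4.74 CPM in CON and 9.17, 12.9 and 10.7 in CKO, Hoxb3 at 2.29, 4.02 and 3.14 in CON and 5.37, 9.93 and 6.25 in CKO and Hoxb2 as given above. The log2 difference, CKO minus CON, was 1.2 ± 0.27 (SE, adjusted p = 0.999) for Hoxb4, 1.31 ± 0.40 (SE, adjusted p = 0.999) for Hoxb3 and 1.83 ± 0.77 (SE, adjusted p = 0.999) for Hoxb2. The 3 CKO values lay above the 3 CON values for Hoxb4 and Hoxb3 and below them for Hoxa2 and Hoxa10, 2 members higher and 2 lower of 29 members. Of all genes, 1.24% were higher and 2.7% lower without overlap. Within chondrocyte-like cells Hoxb4 was at 2.44, 4.43 and 5.87 in CON and 6.41, 11.3 and 7.98 in CKO (1.04 ± 0.42 SE, adjusted p = 1), and in osteoblast-like cells at 8.47, 8.06 and 5.33 in CON and 9.58, 13 and 13.2 in CKO. Hoxb3, at 0.49 ± 0.43 SE, adjusted p = 1 in chondrocyte-like cells, overlapped between the groups there. Of the 27 members tested in chondrocyte-like cells, 2 were higher without overlap, Hoxb4 and Hoxc9, and 3 were lower, among them Hoxa3 and Hoxa9, beside 1.63% and 4.01% of all genes. Hoxc9 was at 41.6, 42.2 and 27.6 in CON and 43.8, 50.3 and 45.1 in CKO (CPM), Hoxa9 at 24.2, 23.9 and 27 in CON and 23.1, 18.9 and 22 in CKO and Hoxa3 at 5.1, 3.75 and 5.04 in CON and 2.77, 3.4 and 2.83 in CKO, and none of them passed the test. CKO2, nearly without cartilage transcripts over all cells, gave the highest Hoxb4 and Hoxc9 and the lowest Hoxa9 value of chondrocyte-like cells. Outside sub-clusters with few UMIs this class held 123 of 632 cells in CKO2, 661 of 2105 in CON1 and 382 of 1239 in CKO1. In endothelial-like cells Hoxb4 was at 52.6 ± 10.7 in CON and 56.3 ± 16.6 in CKO libraries (n = 3 each). In mural-like cells, with values given above, the means of Hoxb4 and Hoxb3 were higher in CKO than in CON, and the groups overlapped. Whether these differences depend on Cre was not tested. The interaction of genotype with class, stromal-like against endothelial-like, was 1.08 ± 0.28 (SE, adjusted p = 1) for Hoxb4, and no member or other gene passed in either interaction (0% of all genes). At an unadjusted p under 0.05, 4 members were found against endothelial-like and 8 against immune-like cells, beside 3.11% and 6.61% of all genes. Of stromal-like cells, chondrocyte-like cells without the group led by Chil1 were 62.6, 36.2 and 23.5% in CON and 51.3, 14.1 and 43.7% in CKO. That group was 1.59, 2.61 and 9.34% in CON and 1.71, 1.92 and 4.32% in CKO. Osteoblast-like cells were 3.97, 4.76 and 6.1% in CON and 2.31, 38.9 and 12% in CKO. The part of this mix in the stromal-like values was not tested. Without CKO3 no member passed in any of the 7 comparisons that involve the genotype.

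**Figure D5:**
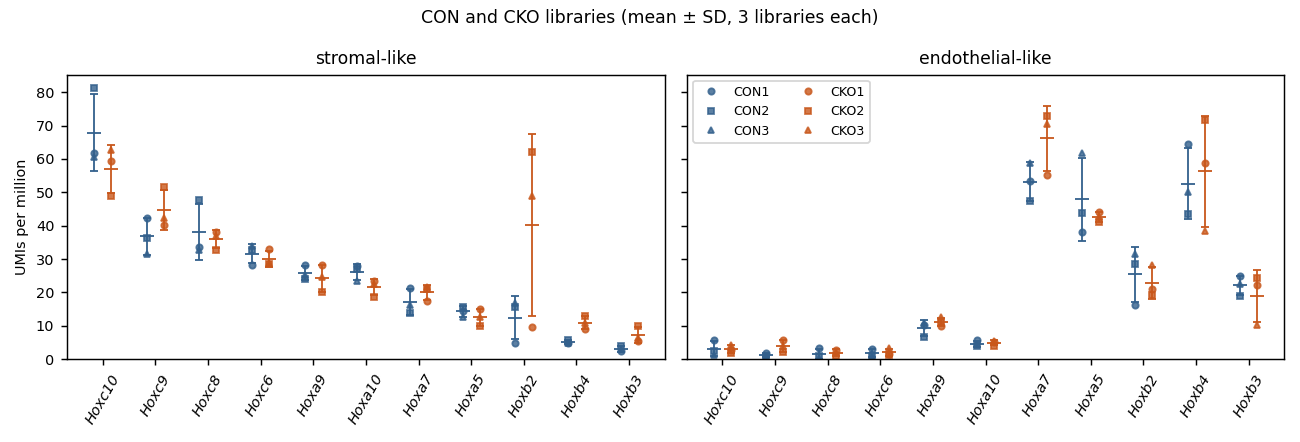
Points are CPM of 11 HOX genes in each CON (blue) and CKO (orange) library, on a linear axis, with the mean and SD of 3 libraries, in stromal-like (left) and endothelial-like cells (right). Hoxb2 in stromal-like cells spreads from 4.94 to 61.9, and no gene shown passed the test.

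In immune-like cells the 16 members tested had a median log2 difference, CKO minus CON, of 0.60 beside 0.02 over all genes, and none passed. The CKO values of Hoxa7, Hoxa9, Hoxb2 and Hoxc6 lay above the CON values, as did those of 1.63% of all genes. Hoxb2 was at 0.745, 0.793 and 0.887 CPM in CON and 1.33, 4.13 and 5.04 in CKO (2.18 ± 0.58 SE, adjusted p = 1), and Hoxc6 at 1.49, 0.397 and 0.56 in CON and 3.25, 1.85 and 2.14 in CKO (1.77 ± 0.52 SE, adjusted p = 1). Transcripts of stromal cells were also uneven between libraries. Col1a1, the main bone collagen, was at 1125, 308 and 593 in CON and 1468, 3962 and 1213 in CKO (CPM) in immune-like cells and Dcn, a matrix proteoglycan, at 117, 36.9 and 91.8 in CON and 142, 100.1 and 163 in CKO. The part of free RNA in the immune-like values was not tested. In endothelial-like cells the groups did not overlap for Hoxc9, which was higher in CKO, nor for Hoxa3 and Hoxb6, which were lower, beside 4.95% and 6.53% of all genes. Hoxc9 was at 1.79, 0.676 and 0.83 CPM in CON and 5.7, 2.24 and 3.82 in CKO (1.93 ± 0.55 SE, adjusted p = 0.788). Its mean in endothelial-like cells was 6.05% of the stromal-like level, and the part of free RNA in it was not tested.

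The remaining members were low or absent. Of the 39, 20 reached 10 CPM on average in at least 1 of the 4 classes, 10 had their highest class mean between 1 and 10, 7 were above 0 but under 1, and 2 had no UMI in any cell. Those without a UMI were Hoxb13 and Hoxd12. Hoxa11, the group 11 gene of the Hoxa cluster, was at 0.649 ± 0.291 in stromal-like and 1.24 ± 1.38 in mural-like cells, and Hoxa13 had 11 UMIs in all cells. Hoxd13 was at 2.35, 2.4 and 0.838 in CON and 1.1, 0.17 and 1.57 in CKO (CPM) in stromal-like cells, while Hoxd11 had 11 UMIs over all cells and Hoxd10 30. Intermediate members were Hoxd9 (8.79 ± 3.54 in endothelial-like cells), Hoxa4 (5.79 ± 1.01 there), Hoxc11 (7.76 ± 5.8 in mural-like cells) and Hoxc5 (6.06 ± 2.37 there). Hoxa2 and Hoxa6 had their highest class means at 3.33 and 3.67 CPM.

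Genes of limb identity were read beside the HOX genes. Pitx1, which specifies hindlimb, was at 19.8, 14.3 and 11.7 CPM in CON and 15.4, 15.2 and 16.1 in CKO in stromal-like cells. Tbx4, its hindlimb partner, and Tbx5, a forelimb gene, were at 1.27 ± 0.827 and 1.65 ± 0.887 CPM, and their ranges overlapped. Prrx1, a marker of limb mesenchyme, was at 208 ± 29.3 in stromal-like, 539.9 ± 94.9 in mural-like and 11.7 ± 5.33 in endothelial-like cells, and Shox2, a gene of the proximal limb, was at 143 ± 34.1, 103 ± 25.9 and 5.12 ± 3.08. Of the 20 limb patterning genes, 19 were tested and 18 were higher and 1 (Msx1) lower in stromal-like than endothelial-like cells, with a median log2 difference of 4.67 beside 0.09 over all genes. The filter on low counts passed 19 of them in stromal-like libraries alone and 9 in endothelial-like ones. For genes tested only because of their stromal-like counts the direction followed from the filter, and they enter the median. Msx1, a gene of the limb tip, was at 12.7 ± 2.67 in stromal-like and 21.4 ± 5.52 in endothelial-like cells. Of all genes 33.2% were higher and 25.5% lower in that comparison. In mural-like against stromal-like cells 4 were higher and 11 lower, with a median of -0.88, beside 16.1% and 23.5% of all genes. With library totals alone 5 were higher and 10 lower, with a median of -0.55. Mural-like libraries alone passed 12 of these genes, so the same limit of the filter holds for lower calls among the others.

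HOX proteins bind DNA with TALE cofactors of the Pbx, Meis and Pknox families. Meis2 was at 37.9 ± 5.27 CPM in stromal-like and 5.67 ± 4.21 in endothelial-like cells, a log2 difference of 3.18 ± 0.37 (SE, adjusted p = 8.67e-05). Of the 9 cofactors tested, 5 were higher (Meis1, Meis2, Meis3, Pbx4 and Pknox2) and 2 lower (Pbx2 and Pbx3) in stromal-like than endothelial-like cells, beside 33.2% and 25.5% of all genes, with a median log2 difference of 1.94 beside 0.09 over all genes. The filter passed 9 in stromal-like libraries alone and 6 in endothelial-like ones, so for the rest a higher level in stromal-like cells followed from the filter. With library totals alone 5 were higher and 4 lower. The 15 regulators of HOX chromatin were Polycomb and Trithorax subunits and demethylases. In that comparison 1 of the 15 was higher (Ring1) and 7 lower, beside 33.2% and 25.5% of all genes. Their median log2 difference was -0.28 beside 0.09 over all genes. With library totals alone 1 was higher and 10 lower. Kmt2a, the methyltransferase that maintains HOX expression, was at 99.8 ± 41.8 in stromal-like and 170.1 ± 65.7 in endothelial-like cells (-0.44 ± 0.09 SE, adjusted p = 0.00216), and Ezh2, the Polycomb methyltransferase, was at 32.3 ± 5.51 and 50.5 ± 8.77 (-0.28 ± 0.14 SE, adjusted p = 0.106). Among noncoding genes of the HOX clusters, Hoxd3os1 was at 15.2 ± 3.45 in endothelial-like and 1.87 ± 0.339 in stromal-like cells (-2.66 ± 0.14 SE, adjusted p = 3.53e-07), and Hotair, which lies between Hoxc11 and Hoxc12, was at 0.683 ± 0.306 in stromal-like cells and rested there on 166 UMIs, against 1 in endothelial-like cells, a ratio of rates of 33 (95% exact counting interval 5.84 to 1311). Hotairm1, at the 3′ end of the Hoxa cluster, was at 15.9 ± 4.79, 31.6 ± 14.5 and 27.5 ± 9.58 in stromal-like, mural-like and endothelial-like cells. Of the 14 genes 8 were tested, 1 was higher and 5 lower in stromal-like than endothelial-like cells, beside 33.2% and 25.5% of all genes. The 1 higher was Hotair, which was tested because of its stromal-like counts. Antisense genes share their locus with HOX genes, so their counts rest on the strand of the reads. Of 6 other homeobox genes, Cdx1, Cdx2, Cdx4 and Evx1 were near 0 and were not tested, and Evx2 and Gbx2 were higher in stromal-like than endothelial-like cells, at stromal-like means of 0.397 and 0.719 CPM. Both passed the filter in stromal-like libraries alone and neither in endothelial-like ones, so their direction followed from the filter. Between CKO and CON libraries no gene of these lists passed in any class or interaction, with medians from -0.64 to 0.95 over the lists and 5 classes, the highest for the limb genes in immune-like cells.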

How the data were processed

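Single cells of 6 fracture calluses were read by 10x 3′ sequencing. The deposited matrices hold raw UMI counts per gene and cell, which the authors made with Cell Ranger (6.1.1 for replicate 1, 6.1.2 for replicates 2 and 3, per the file headers) on GRCm38. Replicate 3 of both groups lists 55357 genes in place of 55450, and the 52081 shared gene IDs were used.

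The cell filter asked for 500 UMIs and 200 genes or more, with no more than 20% of UMIs from mitochondrial genes, and 3046 doublets (6.815%) scored by Scrublet in scanpy 1.11.5 were removed at 0.8% per 1000 cells. Libraries were integrated by reciprocal PCA in Seurat 5.3.0 (2000 variable genes without HOX genes, 30 components), clustered by leidenalg 0.10.2 at resolution 0.8, and clusters were named from at least 3 markers.

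Counts were summed per library and class and fitted with edgeR 4.0.16 (filterByExpr, TMM, quasi-likelihood test, two-sided, R 4.3.3), CKO against CON without a block, and class against class with the library as a block. Benjamini-Hochberg adjusted p under 0.05 over all genes tested was the threshold. The study's methods give as many mice as libraries and its results give other numbers, so p-values measure the spread between these libraries. Summed depth per class and library ran from 484464 UMIs (mural-like) to 62380544 (stromal-like). Intervals on ratios of UMIs cover counting error only. Alternatives were DESeq2 1.42.0, no filter on low counts, other cell filters, resolutions 0.4 and 1.2, no integration, libraries left out, a replicate block and, chosen after seeing the data, library totals without TMM, stromal-like cells without unnamed or few-UMI sub-clusters and chondrocyte-like cells without a sub-cluster led by Chil1. The fits were tested on simulated data. Values of 1 member and 1 cofactor are not reported here.

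Members, lists and the rule for named genes (values by library for members at 10 or more CPM on average in any of 4 classes, and for 5 fixed lists of other genes by counts and medians) were chosen with earlier results of these data known.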

Additional observations from a re-analysis of the deposited data

How the results depend on the processing

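Of 1142 repeats of 71 results on named genes, 1091 kept their direction and their side of the threshold, 32 no longer passed, 6 passed that had not, and 13 changed sign. The 13 concern 3 differences that did not pass in any form. Hoxc6, endothelial-like against immune-like, was at -0.0887 without replicate 3 of both groups and from -0.0411 to 0.349 without single libraries. Hoxc9 in that comparison was at 0.0621 with library totals alone and 0.0346 at resolution 0.4. Hoxb2, stromal-like against endothelial-like, was at -0.0520 with DESeq2, -0.32 with library totals alone, -0.0022 without mitochondrial and rRNA-overlapping genes, -0.0055 at resolution 0.4, -0.0021 at resolution 1.2, -0.16 without replicate 3 of both groups, and from -0.41 to 0.31 without single libraries. The cause was not tested.

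The number of HOX genes past the threshold, mural-like against stromal-like, was 9 without replicate 3 of both groups and from 10 to 19 without single libraries. Chondrocyte-like against fibroblastic-like gave 10 at resolution 0.4, 12 without integration and from 3 to 8 without single libraries. The interaction of genotype with stromal-like and immune-like class gave 1 (Hoxc6) without the filter on low counts. The other class comparisons gave 20 to 30, and the 5 genotype comparisons 0 under every alternative run. The cause was not tested. The share of paralog groups 9 to 13 in stromal-like cells stayed between 48.2 and 50.7%.

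Over all genes, calls by genotype were 0 with edgeR and rose without the filter to 46 in mural-like, 76 in endothelial-like and 3 and 105 in the interactions with endothelial-like and immune-like cells. DESeq2 called 3, 3, 3 and 13 genes in endothelial-like and immune-like cells and in these interactions, and without CKO1 4 genes passed in mural-like cells.

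With the replicate number as a block, 0 HOX genes passed in each of the 5 genotype comparisons, and no call changed. Same-numbered CON and CKO libraries had correlations of their deviations from -0.17 to 0.30, and in 0 of 5 classes every CON library correlated best with its own number, so the numbers were not taken to pair samples. CON1 did correlate best with CKO1 in each of the 5 classes, from 0.08 in immune-like to 0.30 in endothelial-like cells. These libraries also had the lowest median UMIs per barcode, 2337 and 2564.5. What CON1 and CKO1 share beyond this was not tested. The lowest summed depth was 484464 UMIs, in mural-like cells of CKO2.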
